A study of Mus musculus with 12 samples.

Results

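The genes described here are Ddit3, Atf3, Gadd45a, Sesn2, Slc7a11, Mthfd2 and Aldh1l2, 7 genes of the integrated stress response and of mitochondrial folate metabolism out of the 2281 genes in the deposited expression table. They were taken by gene symbol, and they were selected on measured values: earlier results of the same table, in which their levels were lower in cells that overexpressed Setdb1 than in the control cells, were known when they were chosen. Their values in that comparison are therefore given as a description without a test. All 7 passed the filter on low values, which required at least 1 FPKM in at least 3 libraries and kept 2063 of the 2281 genes. FPKM counts fragments relative to transcript length and to the size of the library, so that levels of different genes can be set side by side per length.

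RNA sequencing was performed on 12 libraries of GC1 cells, an immortalised mouse line derived from spermatogonia, all taken at 24 h. The 4 groups of 3 libraries were unmodified cells (genotype WT), cells with a knockout of Ythdf2 (Ythdf2-ko), knockout cells carrying the control for overexpression (Ythdf2-ko-OE-CTR) and knockout cells overexpressing Setdb1 (Ythdf2-koOE-setdb1). The knockout groups share 1 line code in the labels, YC5, so both overexpression groups carry the knockout too, and the labels do not say whether the line is 1 clone. YTHDF2 binds mRNAs that carry N6-methyladenosine and directs them to decay, and SETDB1 is a methyltransferase of lysine 9 of histone H3. Nothing in the labels says whether the replicates were separate cultures, so that p-values measure only the spread between these libraries.

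Ythdf2 itself was lower but present in the knockout libraries, at 5.79 to 6.28 FPKM against 8.51 to 9.33 FPKM in wild type. It lay at 6.04 to 6.24 FPKM in the overexpression control and at 4.23 to 4.99 FPKM with Setdb1 overexpression. Setdb1 was not analysed here, so the overexpression could not be checked in these values. Of 18 germ cell markers, 5 were in the table and the defining markers Ddx4 and Dazl were not analysed here. The summed level of those 5 was 114 to 115 FPKM in wild type, with Piwil2 at no more than 0.26 FPKM, and 69.3 to 71.9 FPKM in the knockout. Of 7 epithelial markers 4 were in the table, and their sum was 838 to 871 FPKM in wild type, 347 to 356 FPKM in the knockout, 382 to 399 FPKM in the overexpression control and 330 to 342 FPKM with Setdb1 overexpression. Sertoli markers (3 of 7 in the table) summed to 152 to 154 FPKM in wild type and 71.6 to 90.8 FPKM in the other groups. Most of that sum was Clu, at 144 to 146 FPKM in wild type. Sox9 was also lower in the knockout, but Gata4 was higher, at 8.40 to 9.05 FPKM against 6.71 to 6.96 FPKM in wild type. The sum of peritubular and fibroblast markers (2 of 9) was lowest in wild type, at 99.4 to 103 FPKM. It was 151 to 152 FPKM in the knockout, 160 to 161 FPKM in its overexpression control and 193 to 196 FPKM with Setdb1 overexpression. That rise was of Fstl1 alone. Pdgfra was lower, at 5.04 to 5.24 FPKM in the knockout against 6.65 to 6.77 FPKM in wild type. The part of these shifts in the results was not tested. Summed levels of 4 haemoglobin genes were over 10 FPKM in wild-type libraries 2 and 3 and in knockout libraries 1 and 2, at 514, 205, 601 and 180 FPKM, and 5.13 FPKM or less in each of the other 8. Fold changes of the called genes among the 7 and, for most gene lists, counts in the knockout against wild type are given with and without those libraries. The leave-out keeps 1 wild-type and 1 knockout library, which are then assumed to vary like the overexpression groups.

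The integrated stress response starts when kinases that sense misfolded proteins, lack of amino acids, lack of haem or double-stranded RNA phosphorylate the translation factor eIF2. General translation falls, while translation of the transcription factor ATF4 rises. ATF4, often as a dimer with a C/EBP protein, then activates genes for amino acid supply, redox balance and one-carbon metabolism, among them the transcription factor CHOP, which Ddit3 encodes. In mitochondria the folate enzymes MTHFD2 and ALDH1L2 carry one-carbon units towards formate and towards carbon dioxide with production of NADPH.

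Dimers of ATF4 or CHOP with C/EBP proteins bind a composite element whose letters are TGATGNAA on either strand. The 250 bases before the start of each gene were taken from RefSeq promoters of GRCm38.p6, where 6 of the 7 genes matched an entry and Aldh1l2 did not. The start is that of the RefSeq entry. For Atf3 and Mthfd2 the window lies inside the gene as GENCODE places it, so this start is not the outermost annotated one. The windows of Gadd45a, Sesn2 and Ddit3 reach partly into the gene, and that of Slc7a11 at position 50443614 only. The element was found in Atf3 and Slc7a11 and in 3.45% of all 32851 promoters of the same length. The sequences of these genes and of Ddit3, which has no match, are shown because Ddit3 and Atf3 encode the stress-response factors and Slc7a11 holds the element more than once. Each is written from 5′ to 3′ on the strand of the gene, and capitals mark the composite element.

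Atf3, chr1:191183334-191183583, minus strand: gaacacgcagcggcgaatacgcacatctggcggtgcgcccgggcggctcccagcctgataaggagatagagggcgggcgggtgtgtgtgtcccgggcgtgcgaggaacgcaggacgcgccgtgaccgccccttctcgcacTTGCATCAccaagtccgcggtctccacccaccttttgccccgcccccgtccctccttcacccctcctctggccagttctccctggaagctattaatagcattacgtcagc

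Slc7a11, chr3:50443614-50443863, minus strand: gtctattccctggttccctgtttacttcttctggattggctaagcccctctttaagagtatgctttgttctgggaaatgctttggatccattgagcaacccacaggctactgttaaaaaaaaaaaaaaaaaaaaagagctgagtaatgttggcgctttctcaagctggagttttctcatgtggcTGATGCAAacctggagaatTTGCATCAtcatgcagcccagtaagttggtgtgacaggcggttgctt

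Ddit3, chr10:127290543-127290792, plus strand: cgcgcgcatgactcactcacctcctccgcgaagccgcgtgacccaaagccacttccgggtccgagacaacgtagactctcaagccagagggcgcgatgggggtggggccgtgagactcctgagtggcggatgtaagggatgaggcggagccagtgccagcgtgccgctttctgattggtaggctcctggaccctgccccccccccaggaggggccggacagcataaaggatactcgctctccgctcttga

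In Atf3 the match was TTGCATCA, from 110 to 103 bases before the start. In Slc7a11 it was TGATGCAA from 66 to 59 bases and TTGCATCA from 47 to 40 bases before the start. An antioxidant response element, TGACNNNGC on either strand, was found in Sesn2 and in 10.2% of all promoters. In Sesn2 it was TGACAGAGC, from 36 to 28 bases before the RefSeq start, which lies inside the gene as GENCODE places it. The cAMP response element TGACGTCA, in 1.55% of all promoters, and the endoplasmic reticulum stress element, CCAAT and CCACG separated by 9 bases, in 0.113% of all promoters, matched none of the 6. A match is a description of the letters, and its absence says only that these letters are not in this window.

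The genes lie in GRCm38 at chr10:127290774-127296288 (Ddit3), chr1:191170296-191218039 (Atf3), chr6:67035096-67037457 (Gadd45a), chr4:132492032-132510501 (Sesn2), chr3:49892526-50443614 (Slc7a11), chr6:83305691-83325908 (Mthfd2) and chr10:83487450-83534140 (Aldh1l2), by GENCODE annotation. Each overlaps at least 1 other annotated gene. Ddit3 shares 68 bases with Mars, the gene of methionyl-tRNA synthetase on the other strand, and Aldh1l2 shares 1056 bases with D10Wsu102e on the other strand. Slc7a11 shares 8812 bases with Gm37854 on the other strand. On the same strand Sesn2 shares 6089 bases with Gm12981, Slc7a11 4002 bases with Gm37498 and Mthfd2 2799 bases with Gm43890, where strand cannot separate reads. The sources do not state whether the counting used strand, so reads in all these stretches cannot be assigned with certainty.

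With Setdb1 overexpression all 7 genes were at their lowest level of the 4 groups, between 0.258 times (Slc7a11) and 0.548 times (Sesn2) the mean of the overexpression control. The median log2 fold change of the 7 was -1.19, with a range from -1.70 to -0.83, against a median of 0.02 over all 2063 tested genes. Fold changes are differences of log2(FPKM + 1). These are the values by which the genes were chosen, so no test is given and nothing is read from their common direction. Over all tested genes, 36.1% were called higher and 31.8% lower in this comparison, where a call is a Benjamini-Hochberg adjusted p under 0.05 in limma. In these bulk libraries fewer cells of a type and less RNA per cell cannot be told apart.

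**Figure D1:**
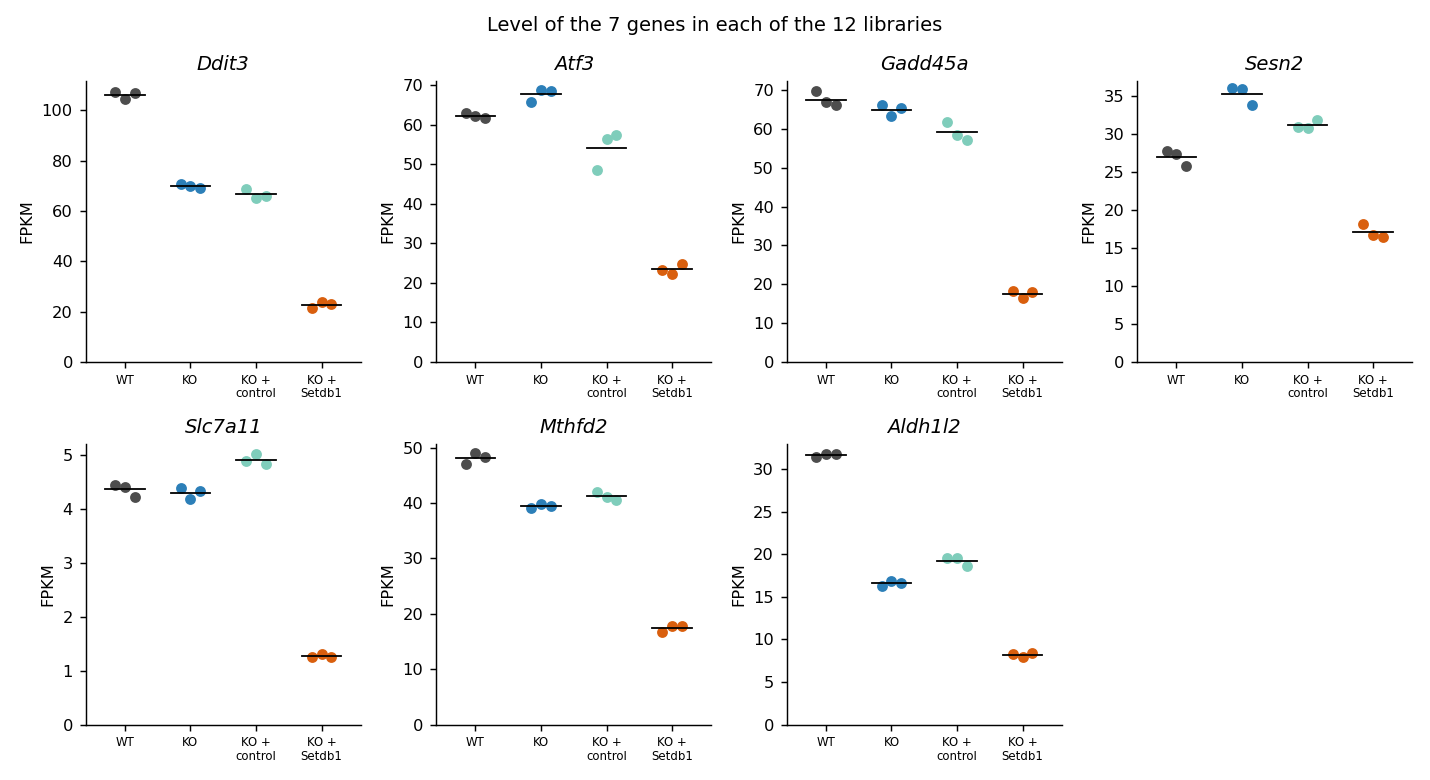
Level in FPKM (vertical axis, from 0) of the 7 genes in each library (points), with the group mean as a line, for wild type (WT), Ythdf2 knockout (KO), knockout with the overexpression control (KO + control) and knockout with Setdb1 overexpression (KO + Setdb1). In each panel the 3 Setdb1 libraries lie below the other 9, with Ddit3 at 21.5 to 23.9 FPKM against 65.2 FPKM or more elsewhere.

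Ddit3 encodes CHOP, a C/EBP-family transcription factor that promotes apoptosis under lasting stress. Its level was 107, 104 and 107 FPKM in the wild-type libraries and 70.8, 69.9 and 69.1 FPKM in the knockout libraries. It was 68.5, 65.2 and 65.8 FPKM in the overexpression control and 21.5, 23.9 and 23.0 FPKM with Setdb1 overexpression. No groups overlapped, and the levels stepped down from wild type to knockout and again to Setdb1 overexpression, while the knockout and the overexpression control lay 0.505 FPKM apart at their nearest libraries. From wild type to knockout Ddit3 fell by 0.60 (log2, SE 0.03), with an adjusted p = 1.09e-07 in limma and 3 of 3 libraries lower. The difference was -0.07 from the knockout to its overexpression control and -1.51 from that control to Setdb1 overexpression.

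Atf3 encodes a transcription factor of the ATF/CREB family that is induced by many stresses and can repress its own promoter. Its level was 62.9, 62.2 and 61.6 FPKM in wild type and 65.9, 68.7 and 68.5 FPKM in the knockout. In the overexpression control it was 48.5, 56.5 and 57.3 FPKM, the widest spread of any of the 7 genes in any group, with a coefficient of variation of 8.99%. With Setdb1 overexpression it was 23.3, 22.3 and 24.7 FPKM. The knockout libraries all lay above the wild-type libraries, but the log2 difference of 0.12 (SE 0.06) did not pass the test in limma (adjusted p = 0.0802). It passed with only the wild-type and knockout groups in the fit (adjusted p = 0.00428) and without replicate 1 of the overexpression control (adjusted p = 0.00949), the library with the low value. The descriptive log2 differences were -0.32 from knockout to overexpression control and -1.17 from that control to Setdb1 overexpression.

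Gadd45a encodes a growth arrest protein that binds PCNA and the mitotic kinase CDK1 and is induced by DNA damage. Its level was 69.7, 66.9 and 66.1 FPKM in wild type and 66.3, 63.3 and 65.4 FPKM in the knockout, and these groups overlapped. It was 61.9, 58.5 and 57.1 FPKM in the overexpression control and 18.2, 16.4 and 17.9 FPKM with Setdb1 overexpression. The knockout did not differ from wild type past the threshold (log2 difference -0.05, SE 0.04, adjusted p = 0.249, limma). The difference from the overexpression control to Setdb1 overexpression was -1.70, the lowest of the 2063 tested genes, after -0.13 from knockout to overexpression control.

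Sesn2 encodes sestrin 2, a leucine-binding protein that restrains the growth kinase complex mTORC1. Its level was 27.7, 27.4 and 25.7 FPKM in wild type and 35.9, 35.8 and 33.7 FPKM in the knockout. It was 30.8, 30.7 and 31.8 FPKM in the overexpression control and 18.1, 16.6 and 16.4 FPKM with Setdb1 overexpression. The groups did not overlap, and the order ran from knockout through overexpression control and wild type to Setdb1 overexpression. Sesn2 rose by 0.37 (log2, SE 0.04) from wild type to knockout, with an adjusted p = 1.69e-05 in limma and 3 of 3 libraries higher, and was the only one of the 7 called higher there. The log2 differences were -0.17 from knockout to overexpression control and -0.83 from that control to Setdb1 overexpression, the smallest drop of the 7.

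Slc7a11 encodes the light chain of the cystine-glutamate exchanger, through which cells obtain cystine for glutathione. It had the lowest level of the 7, at 4.45, 4.42 and 4.23 FPKM in wild type and 4.40, 4.19 and 4.33 FPKM in the knockout. It was 4.90, 5.03 and 4.83 FPKM in the overexpression control and 1.25, 1.30 and 1.26 FPKM with Setdb1 overexpression. Wild type and knockout overlapped, and their log2 difference of -0.02 (SE 0.03) did not pass the test (adjusted p = 0.642, limma). The overexpression control was highest, with a log2 difference of 0.16 from the knockout. From the control to Setdb1 overexpression the difference was -1.38, and -1.95 without the pseudocount, since adding 1 FPKM understates the change of a gene at this level.

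Mthfd2 encodes the mitochondrial methylenetetrahydrofolate dehydrogenase and cyclohydrolase, an enzyme that is high in embryonic and dividing cells and is a target of ATF4. Its level was 47.1, 49.1 and 48.3 FPKM in wild type and 39.2, 39.8 and 39.5 FPKM in the knockout. It was 42.0, 41.1 and 40.6 FPKM in the overexpression control and 16.7, 17.9 and 17.8 FPKM with Setdb1 overexpression, with no overlap between groups. From wild type to knockout Mthfd2 fell by 0.28 (log2, SE 0.03), with an adjusted p = 5.46e-06 in limma and 3 of 3 libraries lower. The log2 differences were 0.06 from knockout to overexpression control and -1.19 from that control to Setdb1 overexpression.

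Aldh1l2 encodes the mitochondrial formyltetrahydrofolate dehydrogenase, which oxidises the formyl group to carbon dioxide. Its level was 31.5, 31.8 and 31.7 FPKM in wild type and 16.3, 16.8 and 16.6 FPKM in the knockout. It was 19.6, 19.6 and 18.6 FPKM in the overexpression control and 8.35, 7.89 and 8.36 FPKM with Setdb1 overexpression, again with no overlap. Of the 7 genes Aldh1l2 had the lowest log2 fold change in the knockout, where it fell by 0.89 (SE 0.03) with an adjusted p = 1.6e-09 in limma and 3 of 3 libraries lower. The log2 differences were 0.20 from knockout to overexpression control and -1.14 from that control to Setdb1 overexpression.

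**Figure D2:**
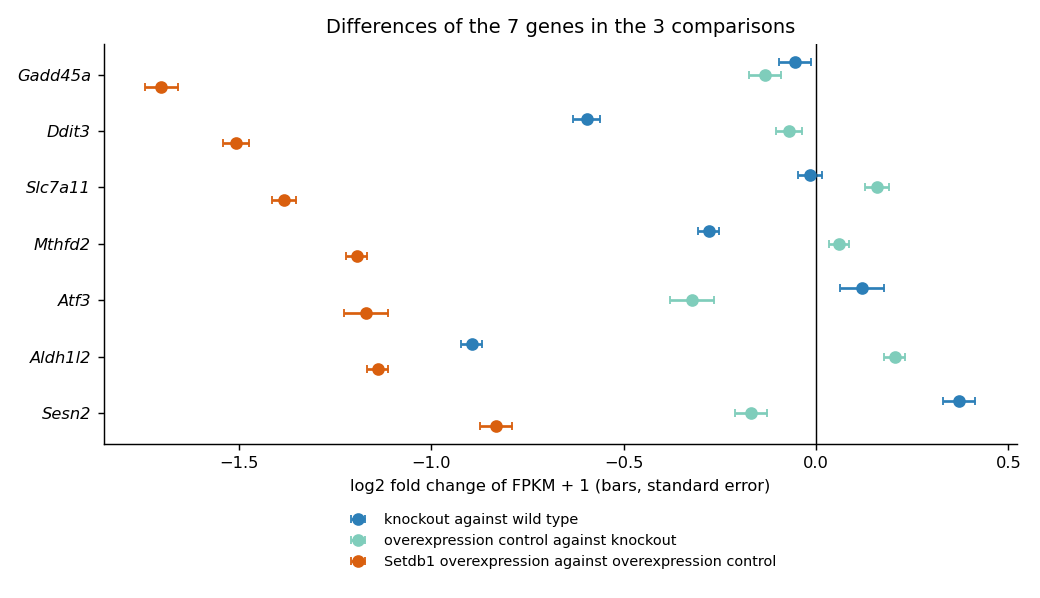
Log2 fold change of FPKM + 1 (horizontal axis) with its standard error (bars) for each of the 7 genes in the 3 comparisons (colours). With Setdb1 overexpression the values run from -1.70 to -0.83, while in the knockout against wild type they run from -0.89 (Aldh1l2) to 0.37 (Sesn2).

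The knockout against wild type shares no library with the comparison used to choose the genes. The spread in its test was estimated over all 12 libraries, those used in the choice among them. Between knockout and wild type 3 of the 7 genes fell, 1 rose and 3 did not pass the test. The background was 39.5% of tested genes called lower and 37.8% called higher, so that 3 of 7 lower is near the share of the table. The deposited table holds only genes marked significant, so its background is not that of a whole transcriptome. The fold changes of the 7 had a median of -0.05, against -0.01 over all tested genes. Without the 4 libraries with blood transcripts 1 wild-type and 1 knockout library remain, so only fold changes are given for that fit. The log2 fold changes of the 4 called genes were then -0.63 for Ddit3, -0.88 for Aldh1l2, -0.25 for Mthfd2 and 0.27 for Sesn2. Both folate enzymes were thus among the calls, and of the transcription factors Ddit3 was and Atf3 was not, a difference between genes that was not tested.

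From the knockout to its overexpression control the 7 genes differed by -0.32 (Atf3) to 0.20 (Aldh1l2) on the log2 scale, with 4 below 0 and 3 above. The control libraries are shared with the Setdb1 comparison, so these values carry no test. For each of the 7 the libraries of the knockout and its overexpression control did not overlap. The share of all tested genes without such overlap was not counted, so this is not read as a trait of the 7. Over all tested genes 3.64% were called higher and 5.04% lower, a split that quantile normalization moves from 41.9% to 52.7% higher among the calls.

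**Figure D3:**
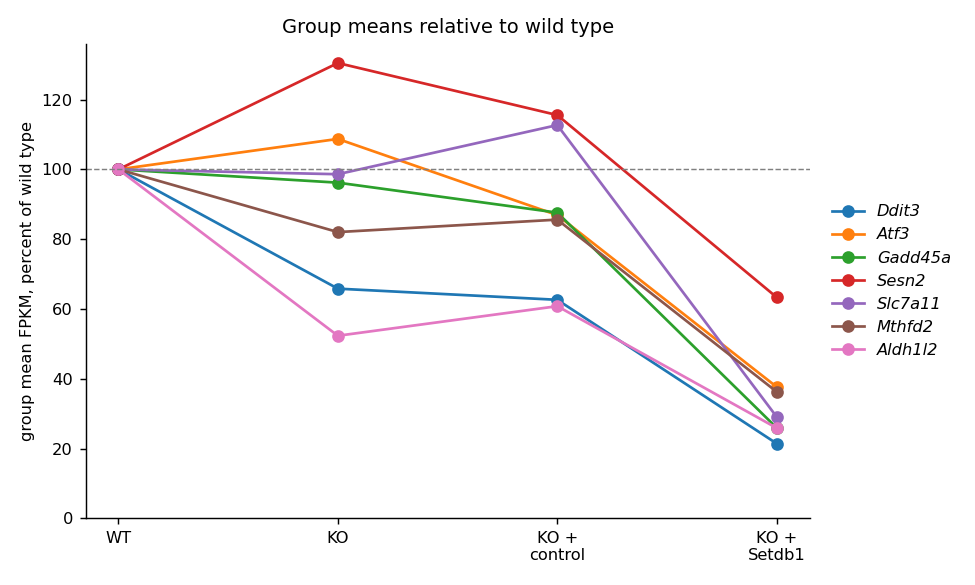
Group mean FPKM as a percent of the wild-type mean (vertical axis, from 0) for the 7 genes in wild type (WT), knockout (KO), knockout with the overexpression control (KO + control) and knockout with Setdb1 overexpression (KO + Setdb1). With Setdb1 overexpression Ddit3 lies lowest, at 21.4%, and Sesn2 highest, at 63.3%.

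Set against wild type, the means with Setdb1 overexpression were 21.4% for Ddit3, 25.9% for Aldh1l2 and for Gadd45a, 29.1% for Slc7a11, 36.3% for Mthfd2, 37.7% for Atf3 and 63.3% for Sesn2. The genes reached these levels by different steps. Aldh1l2 stood at 52.3% and Ddit3 at 65.8% of wild type in the knockout already, whereas Gadd45a and Slc7a11 stood at 96.2% and 98.6%. Wild type was the highest group for Ddit3, Gadd45a, Mthfd2 and Aldh1l2, the knockout for Atf3 and Sesn2, and the overexpression control for Slc7a11.

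Ratios of FPKM within a library show how the genes moved against each other. Aldh1l2 stood at 0.668, 0.648 and 0.657 times Mthfd2 in the wild-type libraries and at 0.416, 0.422 and 0.420 times in the knockout. In the overexpression control the ratio was 0.466, 0.476 and 0.459, and with Setdb1 overexpression 0.499, 0.442 and 0.470. The ratio of the folate enzymes was thus lower in every knockout-derived library than in wild type, and the overexpression groups overlapped each other. Sesn2 stood at 0.241 to 0.262 times Ddit3 in wild type, 0.488 to 0.512 times in the knockout and 0.450 to 0.484 times in its overexpression control. With Setdb1 overexpression this ratio was 0.698 to 0.844. Atf3 stood at 0.577 to 0.595 times Ddit3 in wild type and at 0.930 to 0.992 times in the knockout. In the overexpression control it was 0.708 to 0.871 times Ddit3, and with Setdb1 overexpression 0.934 to 1.09 times, above each control library and overlapping the knockout.

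In the authors' deposited table, whose p- and q-values belong to an unnamed comparison, Ddit3 had the lowest q-value of the 2281 genes. In the same authors' deposited table Aldh1l2 ranked 2, Gadd45a 4, Mthfd2 13, Slc7a11 15, Atf3 17 and Sesn2 56. The genes were chosen with earlier results of these libraries known, so high ranks may follow from that choice. The ranks are given as a description only.

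The other genes of the response were counted over lists that leave out the 7. Each count from the fit with all 12 libraries is read against the share over all tested genes in that fit. This share was 37.8% higher and 39.5% lower in the knockout against wild type. It was 3.64% higher and 5.04% lower from the knockout to its overexpression control, and 36.1% higher and 31.8% lower with Setdb1 overexpression. Counts without the libraries with blood transcripts come from another fit, for which no share is given. Of 38 targets of ATF4, listed for amino acid supply and its control, 10 were tested. These were the amino acid enzyme genes Aldh18a1, Pycr1 and Phgdh, the tRNA synthetase genes Aars, Eprs, Mars and Yars, and the transcription factor genes Cebpb, Cebpg and Jdp2. With Setdb1 overexpression all 10 tested fell and none rose, against a background of 31.8% lower, and their median log2 fold change was -0.59. Aldh18a1, which makes the proline precursor pyrroline-5-carboxylate, was 66.8, 66.7 and 66.9 FPKM in the overexpression control and 29.9, 30.0 and 30.1 FPKM with Setdb1 overexpression, and fell by 1.13 (SE 0.02, adjusted p = 1.3e-11, limma). Pycr1, which completes proline synthesis in mitochondria, fell by 1.04 (SE 0.07, adjusted p = 4.23e-07, limma). Phgdh, the first enzyme of serine synthesis, fell by 0.76 (SE 0.04, adjusted p = 7.39e-08, limma), as did the AP-1 repressor gene Jdp2, by 0.76 (SE 0.03, adjusted p = 1.64e-08, limma). The list was chosen with earlier results of these libraries known and is no independent evidence of its direction. Jdp2 and Bbc3 stand in 2 of the lists each.

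Between knockout and wild type 7 of those 10 genes fell and 1 rose, and the median log2 fold change was -0.12. Aldh18a1 fell by 0.42, Pycr1 by 0.27 and Phgdh by 0.18, and Cebpb, which encodes a partner of ATF4 and CHOP, rose by 0.19 (adjusted p = 9.94e-09, 0.00378, 0.00124 and 0.00471, limma). Without the libraries with blood transcripts 2 of the 10 fell and 0 rose, and the calls of Pycr1 (adjusted p = 0.249) and Cebpb (adjusted p = 0.12) were lost. From the knockout to its overexpression control 2 rose, Eprs by 0.14 and Aldh18a1 by 0.11, and Cebpb fell by 0.30 (adjusted p = 0.00649, 0.00312 and 0.00402, limma). Without the libraries with blood transcripts the calls of Eprs and Cebpb were lost.

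Among partners of CHOP and feedback genes of the response, 9 of 27 were tested. With Setdb1 overexpression 4 fell and 3 rose, with a median of -0.09. Ero1l, an oxidase that forms disulphide bonds in the endoplasmic reticulum and is a target of CHOP, went from 47.1, 48.0 and 47.0 to 19.9, 19.7 and 18.5 FPKM and fell by 1.25 (SE 0.03, adjusted p = 1.76e-10, limma). Sqstm1, the gene of the autophagy receptor p62, fell from 346, 348 and 352 to 172, 169 and 178 FPKM (adjusted p = 1.3e-08, limma), and Atf5, a relative of ATF4, fell by 0.71 (SE 0.03, adjusted p = 1.51e-08, limma). From wild type to knockout Atf5 rose by 0.53, Bbc3, which encodes the apoptosis inducer PUMA, rose by 0.37, Eif2ak2, a kinase of eIF2 that senses double-stranded RNA, rose by 0.29 and Ero1l fell by 0.51 (adjusted p = 6.59e-08, 1.3e-05, 7.51e-06 and 7.09e-08, limma). In that comparison 6 of the 9 rose and 2 fell, and 4 rose and 2 fell without the libraries with blood transcripts. From the knockout to its overexpression control Ero1l rose by 0.32 and Atf5 by 0.15 and none fell (adjusted p = 5.58e-05 and 0.00942, limma). The Atf5 call was lost without the libraries with blood transcripts.

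Atf4, the factor at the head of the response, varied between replicates. It was 164, 308 and 159 FPKM in wild type and 169, 157 and 173 FPKM in the knockout. In the overexpression control it was 140, 143 and 168 FPKM, and with Setdb1 overexpression 65.2, 140 and 76.4 FPKM. Replicate 2 of wild type and replicate 2 of Setdb1 overexpression stood far above the others of their groups, and the latter reached the level of the overexpression control. The call for Setdb1 overexpression (log2 fold change -0.75, SE 0.29, adjusted p = 0.043, limma) was lost in 12 of 23 alternative settings, where the adjusted p reached 0.157. Between knockout and wild type Atf4 did not pass the test (log2 difference -0.27, SE 0.29, adjusted p = 0.414, limma).

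Of 33 genes of folate and one-carbon metabolism, 7 were tested. With Setdb1 overexpression 4 fell and 2 rose, with a median of -0.18. Mthfd1l, the mitochondrial enzyme that releases formate, went from 10.9, 11.8 and 11.4 to 6.16, 7.23 and 7.15 FPKM and fell by 0.66 (SE 0.05, adjusted p = 2.76e-06, limma). Mtrr, which reactivates methionine synthase, fell by 0.40 (adjusted p = 0.00402), and Tyms, the thymidylate synthase gene, rose by 0.37 (adjusted p = 0.00267), both by limma.

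Among the 7 folate genes 4 fell and 1 rose in the knockout against wild type, and 3 fell and 0 rose without the libraries with blood transcripts. The gene that rose, Mthfd1, which encodes the cytosolic counterpart of the mitochondrial folate enzymes, is named after its values were seen and was not called without the libraries with blood transcripts, without wild-type replicate 2 or without knockout replicate 3. Tyms fell by 0.57, Mthfd1l fell by 0.39 and Dld, which encodes a subunit of the glycine cleavage system, fell by 0.12 (adjusted p = 1.0e-04, 8.73e-05 and 0.00486, limma). Mthfd1l fell in both comparisons, while Tyms fell in the knockout and rose with Setdb1 overexpression. The Dld call was lost without the libraries with blood transcripts (adjusted p = 0.0771). Dld rose by 0.12 from the knockout to its overexpression control (adjusted p = 0.0318, limma), a call lost in 8 of 23 alternative settings, where the adjusted p reached 0.329.

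**Figure D4:**
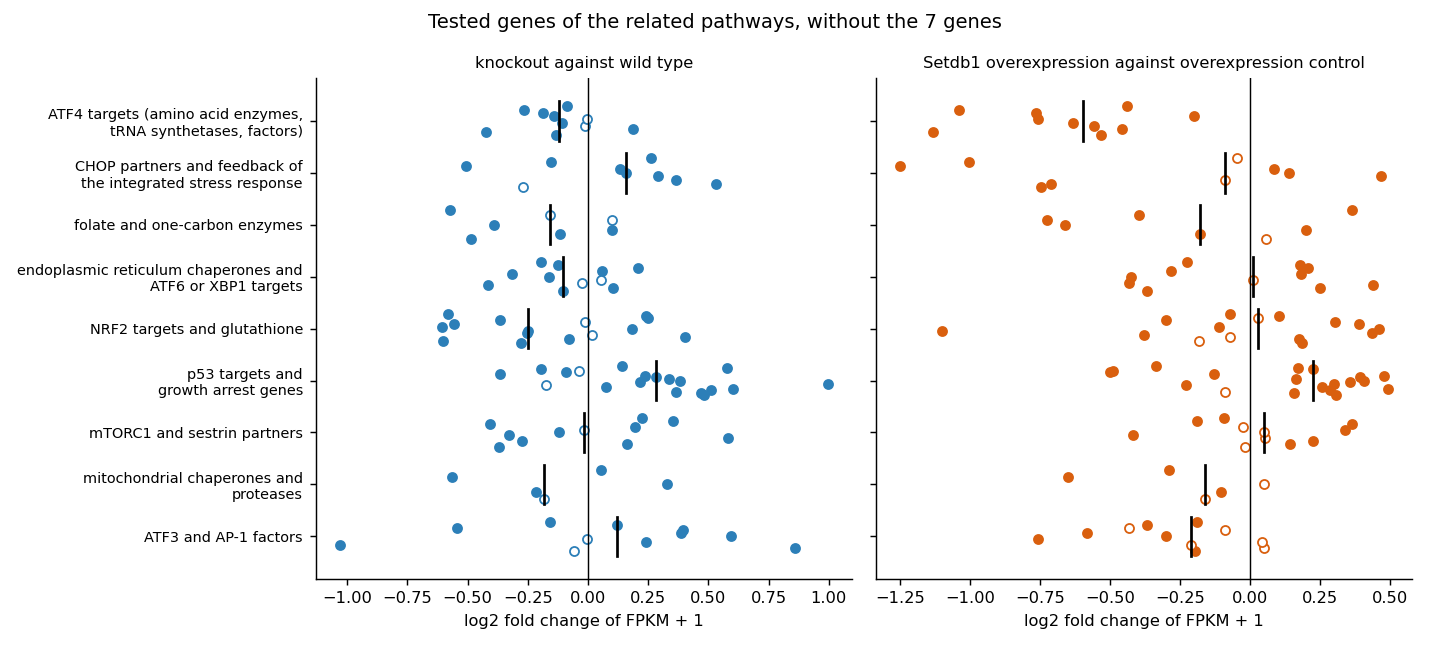
Log2 fold change of FPKM + 1 (horizontal axis) of each tested gene of 9 related lists, without the 7 genes, in the knockout against wild type and with Setdb1 overexpression against its control. Filled points passed an adjusted p of 0.05, open points did not, and black bars are list medians, such as -0.59 for the ATF4 targets with Setdb1 overexpression.

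Endoplasmic reticulum chaperones and targets of ATF6 or XBP1, the other arms of the unfolded protein response, split evenly with Setdb1 overexpression: 5 of 11 rose and 5 fell, with a median of 0.01. Creb3l2, a transcription factor of secretory cells, rose by 0.44, and the sensors Ern1 and Atf6 fell by 0.42 and 0.37, with Crebrf, a regulator of the unfolded protein response, falling by 0.43 (adjusted p = 5.68e-07, 2.6e-07, 3.21e-06 and 1.37e-06, limma). The knockout against wild type gave 3 of the 11 genes higher and 6 lower, among them the chaperone gene Hsp90b1, which fell by 0.32, while the protein disulphide isomerase gene Pdia3 rose by 0.21 (adjusted p = 4.78e-07 and 4.51e-06, limma). Of the 11 genes 3 rose and 4 fell without the libraries with blood transcripts. Mitochondrial chaperones and proteases numbered 5 tested of 16, of which 0 rose and 3 fell with Setdb1 overexpression. The protease gene Lonp1 fell by 0.65 there and by 0.56 in the knockout (adjusted p = 1.4e-09 and 3.01e-09, limma). In the knockout 2 of these 5, Htra2 and Trap1, rose and 2 fell, but without the libraries with blood transcripts 0 rose and 2 fell. The call of Htra2, a protease gene, was lost in 3 of 23 alternative settings and that of Trap1, a chaperone gene, in 9, where the adjusted p reached 0.241 and 0.227 (limma). Leaving out wild-type replicate 1 or knockout replicate 1 also lost both.

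Targets of NRF2 and glutathione genes, the setting in which SLC7A11 works, had 15 of 29 tested. With Setdb1 overexpression 7 rose and 5 fell, with a median of 0.03. Hmox1, the haem oxygenase gene, went from 110, 108 and 108 to 50.6, 50.5 and 49.6 FPKM and fell by 1.10 (SE 0.02, adjusted p = 1.53e-11, limma), whereas the NRF2 inhibitor gene Keap1, the glutathione reductase gene Gsr and the quinone reductase gene Nqo1 rose by 0.46, 0.43 and 0.39 (adjusted p = 1.75e-05, 5.07e-07 and 4.67e-05, limma). Of the same 15 genes 4 rose and 9 fell in the knockout, led by Me1, Fth1, Txnrd1 and Nqo1, which fell by 0.60, 0.60, 0.58 and 0.56 (adjusted p = 1.42e-08, 0.00764, 2.1e-08 and 2.18e-06, limma). The counts were 2 and 8 without the libraries with blood transcripts.

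Other p53 targets and growth arrest genes, the group to which Gadd45a and Sesn2 also belong, had 19 of 29 tested. With Setdb1 overexpression 13 rose and 5 fell, with a median of 0.22. Ccng1, the cyclin G gene induced by p53, rose by 0.49 and Perp, an apoptosis effector gene of p53, rose by 0.48, while the polo-like kinase gene Plk3 and the ribonucleotide reductase gene Rrm2b fell by 0.50 and 0.49 (adjusted p = 1.24e-08, 1.98e-06, 1.03e-06 and 1.1e-05, limma). Against wild type, the knockout had 14 of the 19 genes higher and 3 lower, with Eda2r, Ccng1, Trp53inp1 and Btg2 up by 0.995, 0.60, 0.58 and 0.51 (adjusted p = 2.53e-07, 1.8e-09, 1.11e-08 and 9.65e-09, limma). The background there, with all 12 libraries in the fit, was 37.8% higher and 39.5% lower. Leaving out the libraries with blood transcripts keeps 1 wild-type and 1 knockout library, so counts of that fit are not set against this share. Partners of sestrins and of mTORC1 numbered 11 tested of 37, with 4 up and 3 down with Setdb1 overexpression and 5 up and 5 down in the knockout, where 5 were up and 3 down without the libraries with blood transcripts. The call of Tfeb, a transcription factor gene of lysosome biogenesis, was lost in 9 of 23 settings with Setdb1 overexpression, where it rose by 0.36 (adjusted p = 0.0416), and in 4 in the knockout, where it fell by 0.41 (adjusted p = 0.0219), by limma. The rise of Rps6kb1, the gene of a kinase below mTORC1, with Setdb1 overexpression (log2 0.34, adjusted p = 0.0131, limma) was lost without replicate 3 of that group. Prkaa2, a catalytic subunit of the energy sensor AMPK, rose in the knockout by 0.58 (adjusted p = 2.89e-06, limma).

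Among AP-1 factors and other partners of ATF3, 11 of 22 were tested. With Setdb1 overexpression 6 fell and 0 rose, led by Jdp2, Junb, Mafg and Jun, which fell by 0.76, 0.58, 0.37 and 0.30 (adjusted p = 1.64e-08, 2.53e-07, 9.26e-07 and 5.93e-06, limma). In the knockout against wild type 6 rose and 3 fell, with Fos up by 0.86, Jun up by 0.60 and Fosl1 down by 1.03 on the log2 scale (adjusted p = 1.27e-05, 2.58e-08 and 6.09e-06, limma), and the counts were 6 and 3 without the libraries with blood transcripts. The fall of Maff (adjusted p = 0.0374, limma) was lost in 4 of 23 settings, among them those that left out any 1 of the wild-type libraries. From the knockout to its overexpression control 4 fell and 0 rose. Fos fell by 1.37 and Junb fell by 0.25 (adjusted p = 1.28e-05 and 0.00162, limma). Jun fell by 0.25 (adjusted p = 4.67e-04), while the call of Mafg (adjusted p = 0.0466) was lost in 18 of 23 settings, by limma. The background for the 4, with all 12 libraries in the fit, was 5.04% lower over all tested genes.

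The genes outside the 7 with a profile most like their mean were found by the root-mean-square difference over the 12 libraries. Each gene's log2(FPKM + 1) values were first centred on their own mean. The 5 nearest were Vegfa (0.0493), Dhrs9 (0.0821), Aldh18a1 (0.111), Ndrg1 (0.116) and Hmox1 (0.132), against a median of 0.626 over all tested genes. Vegfa, the vascular endothelial growth factor gene, had group means of 60.4 FPKM (wild type), 54.2 FPKM (knockout), 53.4 FPKM (overexpression control) and 22.2 FPKM (Setdb1 overexpression). Ndrg1, a gene induced by low oxygen and other stresses, had means of 173, 144, 159 and 71.1 FPKM in the same order. The likeness uses the same values as the choice of the 7, so these are descriptions.

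**Figure D5:**
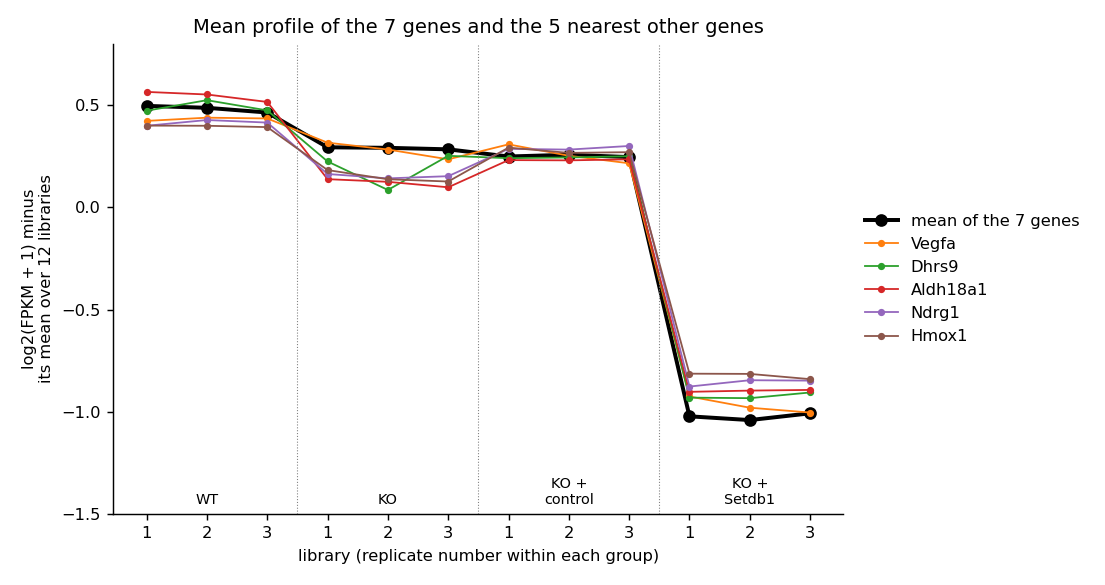
Centred log2(FPKM + 1) (vertical axis) in the 12 libraries (horizontal axis) for the mean of the 7 genes (black) and for 5 other genes. These are the genes outside the 7 with the smallest root-mean-square difference from that mean. All 6 lines drop in the Setdb1 libraries, where the mean of the 7 lies between -1.04 and -1.01.

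Single genes differed in how near they came to that mean: Mthfd2 lay at 0.0704, Atf3 at 0.136, Slc7a11 at 0.138, Gadd45a at 0.202, Ddit3 at 0.243, Aldh1l2 at 0.254 and Sesn2 at 0.318. The nearest other gene was Vegfa for Atf3, Gadd45a and Slc7a11, Dhrs9 for Mthfd2 (0.0482) and 4930438A08Rik for Ddit3 (0.209). It was Nos2, the inducible nitric oxide synthase gene, for Aldh1l2 (0.0602), with means of 15.4, 8.17, 9.55 and 3.68 FPKM in the order of groups given for Vegfa.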

How the data were processed

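RNA sequencing libraries from total RNA were made with Illumina protocols, per the labels' protocols. Per the submitters' processing notes cutadapt, HISAT2, StringTie, edgeR and DESeq2 were used, and no source used here gives their versions, their roles or the genome build. The authors deposited FPKM for 12 libraries and 2281 genes, with a p-value and q-value for a comparison the file does not name. A value of 0 appears as 0.0001. FPKM carries no counts, so the depth per library is unknown. The summed FPKM was 75955 to 81924 per library, over the genes of the table only.

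The members and gene lists were chosen with earlier results of these data known. Genes with at least 1 FPKM in at least 3 libraries (2063) were tested on log2(FPKM + 1) with limma 3.58.1 in R 4.3.3, with a variance trend, 4 group means, all 12 libraries sharing 1 estimate of the spread, and Benjamini-Hochberg adjustment over the 2063. The fit was tested on simulated data. Genes were named by a fixed rule: all 7 members, and from each list up to 4 called genes per comparison with the largest absolute fold change. The rule also names the 5 nearest profiles and the nearest gene to each member, both outside the 7. Atf4 is also shown by library. A few genes that the rule names are not reported here. Gene symbols matched 2281 of 2281 IDs in GENCODE M21. Promoters come from RefSeq, GRCm38.p6. Figures used matplotlib 3.10.9. Alternatives covered the pseudocount, filter, scaling, weights, replicate block, groups in the fit, blood transcripts and each library left out. The log2 values without a pseudocount and the fit without a variance trend were added after seeing the data.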

Additional observations from a re-analysis of the deposited data

How the results depend on the processing

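The 4 calls in the knockout against wild type kept their direction and threshold under all 23 alternative settings. The setting without the libraries with blood transcripts keeps 1 wild-type and 1 knockout library, so it holds no spread within these groups. The number of the 7 genes that rose was 1, but 2 with only the compared groups in the fit, where Atf3 passed, and 1 to 2 across the fits that each left out 1 library. With Setdb1 overexpression the log2 fold changes ranged from -1.76 to -1.66 for Gadd45a, -1.55 to -1.47 for Ddit3 and -0.87 to -0.81 for Sesn2, and from -1.95 to -1.36 for Slc7a11. The count of genes changed from the knockout to its overexpression control was 179, but 106 with only these groups in the fit, 41 without the libraries with blood transcripts, 66 with a model term for them and 93 to 168 with 1 library left out. Counts fell by over 1.5 times without replicate 1, 2 or 3 of the overexpression control (119, 93 and 117) and without knockout replicate 1 or 2 (96 and 106), and the cause was not tested. Of the genes named from the lists and profiles, calls were lost in at least 1 setting for 7 of 37 in the knockout, 13 of 22 from the knockout to its overexpression control and 3 of 41 with Setdb1 overexpression, and none reversed. The replicate numbers did not pair the libraries: of 18 same-numbered pairs 1 correlated above 0.1, and 3 of 12 libraries correlated best with their own number. With a replicate block 1586, 126 and 1389 genes changed in the knockout, the overexpression control and with Setdb1 overexpression, against 1594, 179 and 1400 without. Quantile normalization gave 87 higher and 78 lower from the knockout to its overexpression control, against 75 and 104. Since the table holds FPKM of preselected genes, no counts, and depth is unknown, counting error cannot be given.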
